A study of Mus musculus with 8 samples.

Results

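Gene expression in whole lungs of wild-type mice was compared across birth, between the embryonic stage E18.5 and the postnatal stage P1.5, where the number is the day of gestation or after birth. The comparison used 4 of the 8 RNA-seq libraries of the series, 2 from E18.5 and 2 from P1.5 lungs, all of the *Wfdc2* +/+ genotype, and no treatment was named. The other 4 libraries came from mice carrying a GFP cassette knocked into both copies of *Wfdc2* (GFP/GFP), at the same stages and also 2 per stage; they entered the fit to share its estimate of the spread. Libraries were made from total RNA of the whole organ, so fewer cells of a type and less RNA per cell cannot be told apart. The table listed 25965 genes, of which 15627 had a mean over the 8 libraries of 0.05 or more in RPKM and were tested. RPKM are reads per kilobase, scaled to the reads of the library. The kilobases were those from the start to the end of the gene, introns included.

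Birth ends the supply of glucose through the placenta and replaces it with milk, which is rich in fat. The lung is at the same time cleared of fluid, filled with air at a higher oxygen tension, lined with surfactant from alveolar type II cells and opened to inhaled particles and microbes. In the airways, club cells secrete secretoglobins and other defence proteins. Late gestation is also the saccular stage of lung development, when dividing mesenchyme and epithelium thin out into air sacs.

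The 4 libraries held 34429560 and 31169158 reads at E18.5 and 21714474 and 19457647 reads at P1.5, by the totals recovered from the values. *Sftpc*, encoding surfactant protein C and made by alveolar type II cells, was the most abundant gene in each, at 1.43% and 1.65% of the E18.5 reads and 5.37% and 2.4% of the P1.5 reads. The 2 P1.5 libraries had unequal medians, −0.962 in replicate 1 and −0.216 in replicate 2 on the deposited log2 RPKM scale, against −0.334 and −0.313 at E18.5. All libraries were therefore shifted to a common median, and the values below are these scaled log2 RPKM unless said otherwise, with replicate 1 given before replicate 2. After scaling the P1.5 libraries still stood apart from each other. The median absolute difference between replicates was 0.59 log2 units at P1.5 and 0.14 at E18.5, and 28.6% of genes differed by more than 1 log2 unit between the P1.5 replicates, against 3.9% between the E18.5 replicates. Across genes, replicate 2 at P1.5 correlated better with the E18.5 libraries (r = 0.940 and 0.949) than with replicate 1 at P1.5 (r = 0.917). In both stages replicate 1 held *Xist* reads and replicate 2 *Ddx3y* reads, so a gap between replicates and a difference between sexes cannot be told apart. P1.5 replicate 2 also stood apart by *Trim12a*, chosen after its values were seen, with 2 reads against 351 to 697 in the other 7 libraries. Whether that animal differed from the others in strain background or dissection is not given in the sources used here and was not tested.

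The difference between the stages also moved with transcript length. In 15084 genes with a known transcript, Spearman's rho between the difference and the length was −0.43, and it was −0.43 for P1.5 replicate 1 and −0.31 for replicate 2 taken alone; these are descriptions across genes, which share their libraries. In the tenth of the genes with the shortest transcripts (median 593 bases) the median difference from E18.5 was 1.23 in P1.5 replicate 1 and 0.64 in replicate 2. In the tenth with the longest transcripts (median 7842 bases) it was −0.42 and −0.26. RNA quality, instrument and the share of short transcripts cannot be told apart from stage here, since the sources used here do not say which library ran on which of the 2 sequencers. Values after smoothing out transcript length and GC content are therefore given beside many of the lists, and are called length-corrected below.

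**Figure D1:**
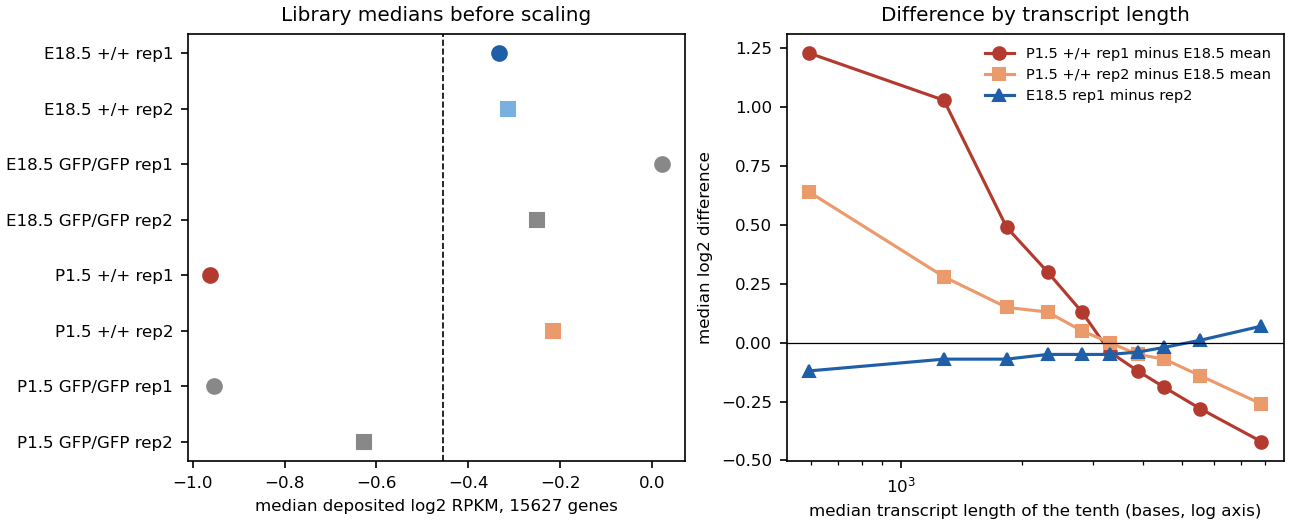
Left, the median deposited log2 RPKM of the 15627 tested genes in each of the 8 libraries, with the dashed line at their mean; P1.5 +/+ replicate 1 lies at −0.962 and replicate 2 at −0.216. Right, the median log2 difference in 10 equal bins of genes ordered by transcript length, for each P1.5 +/+ library against the mean of the E18.5 +/+ libraries and between the E18.5 replicates; both P1.5 lines run from above 0 in short transcripts to below 0 in long ones, while the E18.5 line stays near 0.

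At an adjusted p under 0.05 (limma over the 8 libraries, Benjamini-Hochberg), 2 genes rose from E18.5 to P1.5 in +/+ lung, 0.0128% of those tested, and 3 fell, 0.0192%. At an unadjusted p under 0.05, 1433 genes (9.17%) were higher and 840 (5.38%) lower. The lists of genes below are therefore described by a second rule without a test: both P1.5 libraries lay beyond both E18.5 libraries and the means differed by more than 1 log2 unit. By that rule 1975 genes were higher at P1.5, 12.6% of all, and 947 lower, 6.06%, and the median difference over all genes was 0.12. This split depended on the scaling. It was 8.32% higher and 10.3% lower on the deposited scale, 8.53% and 8.97% after quantile normalization, 10.6% and 7.51% after trimmed-mean scaling, and 7.94% and 5.84% after length correction, with median differences over all genes of −0.15, −0.05, 0.02 and 0.01. P1.5 replicate 1 alone lay more than 1 log2 unit above E18.5 in 26.9% of genes and below in 13.4%, and replicate 2 alone in 8.04% and 4.65%.

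Among the genes that passed, *Angptl4* (chr17:33773750-33781575 on the mm10 assembly) encodes a secreted inhibitor of lipoprotein lipase that is induced by fasting, fatty acids and glucocorticoids. It measured 0.34 and 0.53 at E18.5 and 4.17 and 4.09 at P1.5. The P1.5 libraries agreed closely with each other and stood far above E18.5. The gene rose by 3.70 log2 units (SE 0.34, n = 2 and 2, adjusted p = 0.0328 by limma), a 13-fold difference.

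*Ppp1r3b* (chr8:35375741-35388124) encodes a subunit that brings protein phosphatase 1 to glycogen and promotes glycogen synthesis. Its values were 3.23 and 3.36 at E18.5 and −0.57 and −0.79 at P1.5, from 4362 and 4366 reads before birth and 127 and 164 after it. No other gene had a smaller adjusted p: it fell by 3.98 log2 units (SE 0.29, adjusted p = 0.0202 by limma), 15.8-fold.

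*Gipr* (chr7:19157125-19166127) encodes the receptor for glucose-dependent insulinotropic polypeptide, a gut hormone released on feeding. It was at −0.11 and −0.01 at E18.5 and −3.78 and −4.52 at P1.5, and fell by 4.09 log2 units (SE 0.38, adjusted p = 0.0328 by limma). *Crh* (chr3:19693401-19695396), which encodes corticotropin-releasing hormone and whose loss in mice is known to delay lung maturation, had 121 and 105 reads at E18.5 and 0 and 1 at P1.5. The P1.5 libraries were thus at the limit of detection, and against a floor of 3 reads per library *Crh* was at least 19.6-fold lower at P1.5 (adjusted p = 0.0328 by limma). *Rpsa-ps10* (chr3:150072590-150073620), a processed pseudogene of a ribosomal protein gene, had 1 and 0 reads at E18.5 and 75 and 33 at P1.5, at least 31.8-fold higher. Its reads may come in part from near-identical copies, so its identity is uncertain. After length correction all 5 genes kept their direction and an adjusted p between 0.0102 and 0.0375.

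Lipid use in the lung was examined with a list of fatty acid oxidation genes, which holds *Angptl4*. Of its 37 tested members 1 rose, and 9 were higher at P1.5 without overlap (24.3%, against 12.6% of all genes) and 0 lower; the median difference was 0.33, against 0.12 for all genes. After length correction 8 were higher. *Cpt1b*, the muscle form of the transferase that admits fatty acids to mitochondria, was at −2.09 and −2.73 at E18.5 and 1.05 and −0.48 at P1.5 (difference 2.70, SE 0.53, adjusted p = 0.107 by limma). *Fabp3*, a fatty acid binding protein of heart and muscle, was at 0.05 and −0.56 and then 3.22 and 1.52. Both genes were higher in replicate 1 than in replicate 2 at P1.5. Cardiac genes were also more abundant in replicate 1 at P1.5, as described below; their part in these values was not tested. *Acadm*, medium-chain acyl-CoA dehydrogenase, was at 1.47 and 1.45 before and 1.43 and 1.47 after birth.

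Part of the glycolytic enzymes were lower after birth. Of 21 tested members, 0 were higher and 7 lower without overlap (33.3%, against 6.06% of all genes) and the median was −0.55. These 7 were *Pdk1*, *Aldoc*, *Eno1*, *Pgk1*, *Ldha*, *Hk2* and *Pgam1*, the last of which was named after its values were seen. *Pdk1*, the kinase that holds pyruvate back from mitochondria, was at 0.96 and 0.86 at E18.5 and −0.94 and −0.97 at P1.5 (difference −1.87, SE 0.29, adjusted p = 0.0819 by limma). *Pgk1*, phosphoglycerate kinase, was at 3.6 and 3.72 and then 2.65 and 2.65. *Ldha*, the lactate dehydrogenase subunit that favours lactate formation, was at 4.67 and 4.73 and then 3.51 and 3.87. The replicates of these 3 genes lay within 0.4 log2 units of each other in each stage. None of the 7 passed the test. The list was also lower in each P1.5 library alone, with medians of −0.34 and −0.83, and after length correction 10 of 21 were lower and 0 higher, with a median of −0.86.

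Genes of the hypoxia response, which overlaps with glycolysis in *Pdk1* and *Slc2a1*, did not share one direction: 4 of 28 were lower without overlap (14.3%) and 1 higher, with a median of −0.21. *Hif1a*, the oxygen-labile transcription factor subunit, was at 1.0 and 0.96 at E18.5 and −0.31 and −0.14 at P1.5. Its paralogue *Epas1*, expressed in lung endothelium and epithelium, was at 1.38 and 1.75 and then 2.94 and 2.65. The stages did not overlap for either gene, and the differences were opposite, −1.2 (SE 0.30) and 1.23 (SE 0.37), with adjusted p of 0.192 and 0.254 by limma. *Vegfa*, a target of both factors, differed by 0.22.

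The core of the hypoxia response element, ACGTG on either strand, was searched in the 250 bases before the RefSeq start of each gene. Of the tested genes, 10236 had a promoter in the RefSeq table (assembly GRCm38.p6), and 20.8% of these held the letters. Among the glycolysis genes 8 of 21 did (38.1%), and 4 of the 7 that were lower without overlap and 4 of the 14 others held it. Of the hypoxia response list 11 of 21 matched promoters did (52.4%), but 7 of its 28 tested members had no promoter in the table. The promoters of *Pgk1* and *Ldha* are shown as examples, both genes being lower in both P1.5 libraries and holding the letters more than once. *Hk2* met the same rule, whereas *Pdk1*, *Aldoc* and *Eno1*, also lower, held no match. Capitals mark ACGTG or its reverse complement CACGT, which overlap where CACGTG is written. A match describes the sequence only. *Pgk1* lies on the plus strand at chrX:106186850-106187099 and *Ldha* on the plus strand at chr7:46845554-46845803, each written in the direction of transcription.
Pgk1: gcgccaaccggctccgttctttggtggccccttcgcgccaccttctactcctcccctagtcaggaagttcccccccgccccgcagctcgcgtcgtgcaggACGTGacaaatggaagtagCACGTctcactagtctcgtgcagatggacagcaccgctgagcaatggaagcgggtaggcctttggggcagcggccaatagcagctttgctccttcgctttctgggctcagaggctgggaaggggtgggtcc
Ldha: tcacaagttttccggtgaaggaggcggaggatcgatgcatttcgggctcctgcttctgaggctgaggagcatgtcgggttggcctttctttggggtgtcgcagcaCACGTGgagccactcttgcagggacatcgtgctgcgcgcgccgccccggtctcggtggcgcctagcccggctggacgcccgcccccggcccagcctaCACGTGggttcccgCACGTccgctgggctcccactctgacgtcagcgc

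Lipid synthesis was mixed. Of 30 tested genes of fatty acid and phosphatidylcholine synthesis, 5 were lower without overlap (16.7%) and 4 higher (13.3%), with a median of −0.12. The 5 lower, listed together after their values were seen, were *Scd1*, *Scd2*, *Gpam*, *Fads2* and *Pcyt1a*. *Scd2*, a fatty acid desaturase prominent in fetal tissue, was at 6.73 and 6.74 at E18.5 and 5.05 and 4.40 at P1.5. *Gpam*, which attaches the first acyl chain to glycerol phosphate, was at 1.16 in both E18.5 libraries and −1.21 and −0.63 at P1.5. *Pcyt1a*, the rate-limiting enzyme of phosphatidylcholine synthesis and so of surfactant lipid, was at 1.23 and 1.25 and then 0.11 and 0.19. The replicates of *Pcyt1a* differed by less than 0.1 log2 units in each stage, and the difference of −1.09 (SE 0.24) had an adjusted p of 0.147 by limma. Cholesterol genes differed between the P1.5 libraries, with a list median of 0.13 in replicate 1 and −0.76 in replicate 2 over 27 genes, and 2 higher and 3 lower without overlap.

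**Figure D2:**
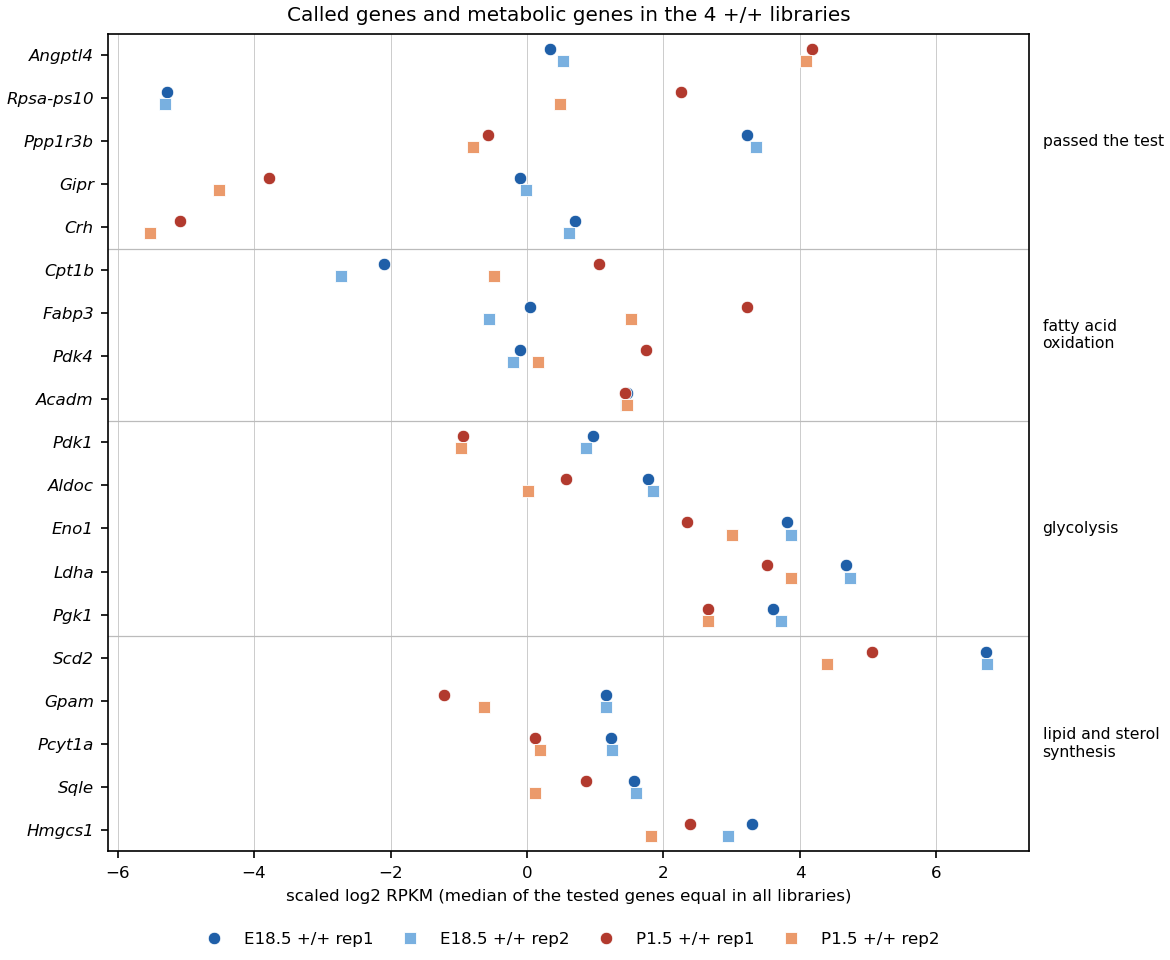
Scaled log2 RPKM in each of the 4 +/+ libraries (points; blue E18.5, red and orange P1.5; circles replicate 1, squares replicate 2) for the 5 genes that passed the test and for genes of fatty acid oxidation, glycolysis and lipid and sterol synthesis. The glycolysis genes shown lie lower in both P1.5 libraries, with differences of −1.87 log2 units for *Pdk1* and −1.01 for *Pgk1*, whereas *Acadm* coincides in all 4.

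Neutrophil genes formed the list with the widest shift of any immune list. Of 23 tested members, 20 were higher at P1.5 without overlap (87.0%, against 12.6% of all genes) and 0 lower, and the median difference was 3.0 log2 units, although no member passed the test. Their summed level was 234 and 264 RPM (reads scaled to the size of the library) at E18.5 and 2350 and 906 at P1.5. *Camp*, encoding the cathelicidin antimicrobial peptide of secondary granules, was at −0.35 and −0.46 at E18.5 and 6.13 and 3.80 at P1.5 (difference 5.37, SE 0.79, adjusted p = 0.068 by limma). *Ngp*, another granule protein, was at 1.12 and 1.0 and then 4.87 and 4.15 (adjusted p = 0.068). *S100a8*, a subunit of the calcium-binding protein calprotectin, was at 4.55 and 4.56 and then 10.15 and 7.34 (adjusted p = 0.131 by limma). The E18.5 values of these genes were nearly equal, and both P1.5 libraries stood above them, replicate 1 more than replicate 2. *Cxcr2*, the chemokine receptor by which neutrophils are drawn to tissue, was at −0.98 and −1.38 and then 0.98 and 0.60. *Ltf*, encoding the iron-binding lactoferrin of granules and airway secretions, was at −1.15 and −1.56 and then 1.64 in both P1.5 libraries, where it no longer differed between replicates. After length correction 17 of 23 were still higher without overlap, with a median of 2.79.

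The summed level of the lymphoid genes was 130 and 141 RPM at E18.5 and 138 and 225 at P1.5, so P1.5 replicate 1 lay within the E18.5 range. Of 31 listed, 13 were below the level filter, and of the 17 tested, 10 were higher without overlap (58.8%) and 1 lower; since a gene expressed only after birth passes the filter through that stage, the count gives no support on its own. After length correction 9 were higher and 1 lower. *Cd79a*, part of the B cell receptor, had 13 and 7 reads at E18.5 and 60 and 160 at P1.5 (difference 4.30, SE 0.60, adjusted p = 0.068 by limma). The T cell genes *Cd2* and *Cd3g* were also higher in both P1.5 libraries, *Cd2* at −5.65 and −6.69 and then −2.72 and −2.41. Replicate 2 was the higher P1.5 library for all 3 genes, the reverse of the neutrophil genes *Camp* and *S100a8*. The lower member was *Gzmb*, encoding the protease granzyme B of cytotoxic cells and named after its values were seen, with 198 and 96 reads at E18.5 and 1 and 14 at P1.5.

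Alveolar macrophages mature in the first days of life from fetal monocytes. Of 20 listed alveolar macrophage genes, 3 were absent from the data and 2 were below the level filter. Of the 15 tested, 7 were higher without overlap (46.7%, against 12.6% of all genes) and 0 lower, with a median of 1.80. Since a gene can pass the filter through the P1.5 libraries alone, the count gives no support on its own. The summed level was 127 and 124 RPM at E18.5 and 237 and 249 at P1.5. After length correction 7 of 14 were higher, with a median of 1.40. *Marco*, a scavenger receptor for inhaled particles, was at −3.29 and −2.96 at E18.5 and 0.94 and −0.34 at P1.5 (difference 3.42, SE 0.65, adjusted p = 0.105 by limma). *Atp6v0d2*, a subunit of the proton pump of macrophages, was at −5.42 and −4.49 and then −1.48 and −0.64 (adjusted p = 0.0716). In the broader list of macrophage and monocyte genes, 6 of 27 were higher without overlap and 3 lower, with a median of 0.62 and a positive difference in 21. After length correction 2 were higher and 3 lower, the median being 0.38. *Gpnmb*, a glycoprotein of lipid-laden macrophages, differed by 3.12. *Ccr2*, the receptor of circulating monocytes, was at 1.28 and 1.03 and then −3.08 and −0.46. *F13a1*, encoding a coagulation factor subunit found in fetal-type monocytes and macrophages, was at −1.71 and −1.79 and then −3.37 and −3.41. The differences were −2.93 for *Ccr2* (SE 0.78) and −1.64 for *F13a1*, and neither passed the test.

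Other immune genes were less uniform. Of 32 cytokines and chemokines, 10 were higher without overlap (31.2%, against 12.6% of all genes) and 3 lower (9.38%, against 6.06%), with a median of 0.64. After length correction 8 were higher and 2 lower. *Ccl6*, a macrophage chemokine, was at 1.93 and 2.38 at E18.5 and 6.23 and 5.40 at P1.5 (difference 3.66, SE 0.60, adjusted p = 0.0892 by limma). The complement and acute phase list had 7 of 20 higher (35.0%) and 1 lower (5.0%), with a median of 0.98, and 7 higher and 0 lower after length correction. Its central component *C3* was at 2.57 and 2.83 and then 5.27 and 4.57. Of 24 interferon-responsive genes, 1 was higher (4.17%) and 4 lower (16.7%), with a median of −0.28, and 1 was higher and 3 lower after length correction. In the list of MHC class II and dendritic cell genes 0 of 10 were higher or lower by the rule, and P1.5 replicate 1 lay below E18.5 (median −0.96) and replicate 2 above it (median 0.67). Of 13 mast cell and basophil genes 5 were below the level filter, and of the 8 tested 5 were higher without overlap, or 2 after length correction, a count that gives no support on its own. Their summed level was 134 and 171 RPM at E18.5 and 129 and 235 at P1.5, so the stages overlapped.

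Among airway genes, 11 of 22 tested club and secretory cell genes were higher at P1.5 without overlap (50%, against 12.6% of all genes) and 1 was lower, with a median of 1.13. The list's summed level was 4370 and 5510 RPM at E18.5 and 25600 and 11700 at P1.5. *Scgb1a1*, the secretoglobin that defines mature club cells, was at 7.08 and 7.61 and then 11.79 and 10.04 (difference 3.57, SE 1.29, adjusted p = 0.302 by limma). *Scgb3a2*, a secretoglobin expressed earlier in development, was at 8.47 and 8.77 and then 11.43 and 9.39. *Wfdc2* itself, a secreted antiprotease-like protein, was at 5.14 and 5.39 and then 8.46 and 6.19 (difference 2.06, SE 1.31, adjusted p = 0.402 by limma). For these 3 genes the P1.5 replicates differed by more than 1.7 log2 units, which left the difference unresolved by the test although the stages did not overlap. *Bpifa1*, an antimicrobial surfactant-like protein of the airway surface, had 3 and 8 reads at E18.5 and 299 and 64 at P1.5 (difference 5.76, SE 0.97, adjusted p = 0.0925 by limma). The lower member was *Reg3g*, an antibacterial lectin, at 4.93 and 5.21 and then 3.67 and 1.98. After length correction the list median was 0.79, with 9 of 22 higher and 1 lower.

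**Figure D3:**
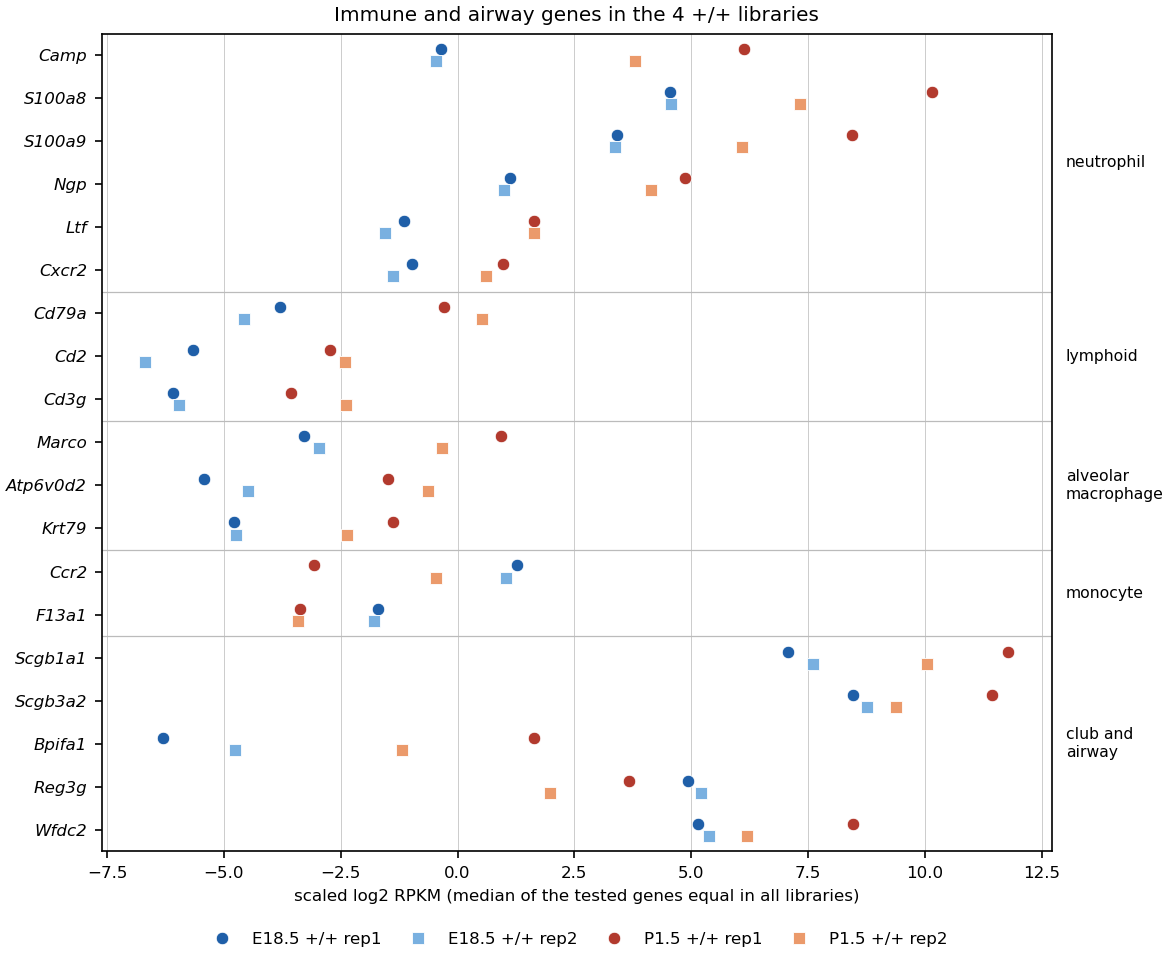
Scaled log2 RPKM of immune and airway genes in each of the 4 +/+ libraries (blue E18.5, red and orange P1.5; circles replicate 1, squares replicate 2). Neutrophil, lymphoid, alveolar macrophage and most club cell genes lie to the right in both P1.5 libraries, and *Ccr2*, *F13a1* and *Reg3g* to the left; the P1.5 replicates are widely spaced for *S100a8* (10.15 and 7.34) and *Bpifa1*.

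The alveolar epithelium gave no common direction. Without overlap, 4 of 22 alveolar type II genes lay higher (18.2%) and 2 lower (9.09%), the median being −0.03. For 20 alveolar type I genes the counts were 3 and 1 and the median 0.10. After length correction the counts were 2 and 2 for type II and 1 and 0 for type I genes. *Sftpc* was at 12.03 and 12.22 at E18.5 and 14.57 and 12.66 at P1.5. *Sftpd*, a collectin of innate defence, was at 4.45 and 4.66 and then 6.63 and 5.51. *Sftpb*, which is needed to spread surfactant, was at 7.06 and 7.38 and then 6.65 and 7.52, so the stages overlapped. *Abca3*, the lipid pump of lamellar bodies, overlapped as well, at 2.65 and 2.97 and then 2.94 and 2.55. Among alveolar type I genes, *Ager* and *Aqp5* were higher in both P1.5 libraries. *Akap5*, a kinase-anchoring protein, was at 6.28 and 6.11 and then 4.49 and 4.99. *Nkx2-1*, the transcription factor of lung identity, stayed between 5.38 and 5.61 in all 4 libraries. *Sox9*, which marks the distal progenitor tips of the fetal lung, was at 1.11 and 0.98 and then −0.06 and 0.13 (difference −1.01, SE 0.28, adjusted p = 0.231 by limma).

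Ciliated cell genes differed between the P1.5 libraries rather than between stages, with list medians of 0.81 in replicate 1 and −0.64 in replicate 2 over 19 genes. *Foxj1*, the master transcription factor of motile cilia, was at 3.65 and 4.05 at E18.5 and 4.62 and 3.37 at P1.5. *Ccdc39*, needed to assemble the ciliary axoneme, was at −0.46 and −0.58 and then −1.78 and −1.93. Only 19 of 27 listed members could be tested, so the list is incomplete.

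Clearance of lung fluid depends on sodium uptake through the epithelial sodium channel. Of 27 ion and fluid transport genes, 3 were higher without overlap (11.1%, against 12.6% of all genes) and 3 lower (11.1%, against 6.06%). The share higher was thus near that of all genes, and the genes below are described singly. The 3 higher were *Scnn1b*, a subunit of that channel, *Aqp5*, the water channel of type I cells, and *Sgk1*, a kinase that keeps the channel at the membrane. *Scnn1b* was at −0.62 and −0.30 and then 2.02 and 0.65, and *Sgk1* at −1.43 and −1.39 and then −0.16 and −0.07 (difference 1.30, SE 0.26, adjusted p = 0.111 by limma). The replicates of *Sgk1* were close to each other in both stages. *Cftr*, the chloride channel that drives fetal fluid secretion, was among the 3 lower, at −2.18 and −2.29 and then −4.08 and −3.17. The other subunits of the sodium channel, *Scnn1a* and *Scnn1g*, differed by 0.18 and 0.66.

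Genes of mitosis were lower at P1.5, by unequal amounts in the 2 libraries. Of 37 tested G2 and M phase genes, 19 were lower without overlap (51.4%, against 6.06% of all genes) and 0 higher, with a median of −1.42, and all 37 had a negative difference. Replicate 1 carried most of it. Taken alone, replicate 1 was more than 1 log2 unit below E18.5 for 33 genes and replicate 2 for 1, with medians of −2.56 and −0.33. The summed level was 1880 and 1280 RPM at E18.5 and 248 and 1230 at P1.5. *Top2a*, the topoisomerase that untangles chromosomes, was at 2.73 and 2.09 at E18.5 and −0.90 and 1.60 at P1.5 (difference −2.06, SE 0.84, adjusted p = 0.331 by limma). *Ccnb1*, cyclin B1, was at 2.41 and 1.76 and then −0.63 and 1.54. *Mki67*, the proliferation antigen, was at 2.70 and 1.93 and then 0.81 and 1.91. For these 3 genes replicate 2 at P1.5 lay close to the lower E18.5 library and replicate 1 far below it. After length correction 19 of 37 were lower without overlap, with a median of −1.33.

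S phase genes gave a smaller difference, 9 of 33 lower (27.3%) and 0 higher, with a median of −1.18 in replicate 1 and −0.14 in replicate 2. *Ccne2*, a cyclin of S phase entry, was at 0.49 and 0.45 and then −2.43 and −0.74. *Pcna*, the replication clamp, was at 4.77 and 4.73 and then 4.71 and 4.91, and its stages overlapped. Of the 27 cell cycle regulators, 2 were higher without overlap and 0 lower. *Cdkn1a*, encoding the cell cycle inhibitor p21, was at 1.35 and 1.54 and then 5.58 and 2.09, with replicate 1 again the farther from E18.5.

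The promoters of G2 and M phase genes are known to combine CCAAT boxes with a cell cycle homology region, here searched as CCAAT and as TTTGAA on either strand in the same 250 bases. CCAAT was in 25 of the 31 promoters of the list that were matched (80.6%), against 35.8% of all, and TTTGAA in 10 of 31 (32.3%), against 10.4%. Of the 17 matched members that were lower without overlap, 14 held CCAAT, and of the 14 others, 11 did. The promoters of *Top2a* and *Ccnb1* are shown because both genes separate P1.5 replicate 1 from the other libraries. Capitals mark CCAAT or its reverse complement, written ATTGG, and the homology region TTTGAA or its reverse complement, written TTCAAA. *Top2a* held both motifs, whereas *Ccnb1* held 2 matches to CCAAT and none to TTTGAA on either strand. *Top2a* lies on the minus strand at chr11:99024190-99024439 and *Ccnb1* on the minus strand at chr13:100786487-100786736 (GRCm38.p6), each written in the direction of transcription.
Top2a: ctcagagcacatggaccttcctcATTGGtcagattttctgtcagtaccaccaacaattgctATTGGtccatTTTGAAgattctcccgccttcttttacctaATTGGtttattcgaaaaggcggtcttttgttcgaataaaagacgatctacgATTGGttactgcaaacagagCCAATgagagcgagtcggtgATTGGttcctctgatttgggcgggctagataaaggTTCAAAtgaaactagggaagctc
Ccnb1: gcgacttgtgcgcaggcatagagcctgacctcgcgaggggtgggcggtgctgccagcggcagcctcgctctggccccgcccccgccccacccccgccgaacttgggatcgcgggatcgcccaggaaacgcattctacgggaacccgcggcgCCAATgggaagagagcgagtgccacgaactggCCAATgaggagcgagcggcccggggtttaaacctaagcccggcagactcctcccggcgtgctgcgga

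Several imprinted and oncofetal growth genes were lower after birth, 3 of 22 without overlap (13.6%), with 1 higher and a list median of −0.42. *Dlk1*, a paternally expressed inhibitor of differentiation, was at 6.41 and 6.79 at E18.5 and 4.43 and 3.95 at P1.5 (difference −2.42, SE 0.58, adjusted p = 0.183 by limma). *Mest* was at 5.44 and 5.32 and then 2.57 and 4.03, and *Igf2r*, which clears insulin-like growth factor 2, at 1.94 and 1.87 and then −0.40 and 0.73. The higher member was *Meg3*, a maternally expressed RNA of the same imprinted cluster as *Dlk1*, at 3.27 and 3.32 and then 4.96 and 4.48. *Dlk1* and *Meg3*, which are expressed from opposite parental copies, thus lay on opposite sides of their E18.5 values. *Igf2*, the fetal growth factor, was at 5.0 and 4.95 and then 5.05 and 4.35.

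Matrix genes split the P1.5 libraries. The 27 collagen and collagen-processing genes had a median of −0.92 in replicate 1 and 0.13 in replicate 2, with 4 lower without overlap (14.8%) and 0 higher. *Col1a1*, a fibrillar collagen, was at 5.79 and 5.98 at E18.5 and 4.02 and 6.17 at P1.5, and *Col3a1* followed the same order of libraries. *Col15a1*, a basement membrane collagen, was at −1.12 and −1.10 and then −5.16 and −2.02. Among 37 matrix glycoproteins and proteoglycans, 3 were higher and 5 lower. *Hapln1*, a link protein of hyaluronan, was at −0.12 and −0.06 and then −2.44 and −1.57 (difference −1.92, SE 0.35, adjusted p = 0.105 by limma). *Sparcl1* was at 4.68 and 4.81 and then 3.38 in both P1.5 libraries (adjusted p = 0.115). *Ctgf*, a mechanically induced matrix protein, was at 4.54 and 4.43 and then 6.52 and 6.20, so both P1.5 libraries were higher and close to each other. The elastic fibre list had a median of 0.00 and 2 of 22 genes higher against 1 lower, and *Eln*, elastin, was at 6.05 and 6.59 and then 5.93 and 5.49.

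**Figure D4:**
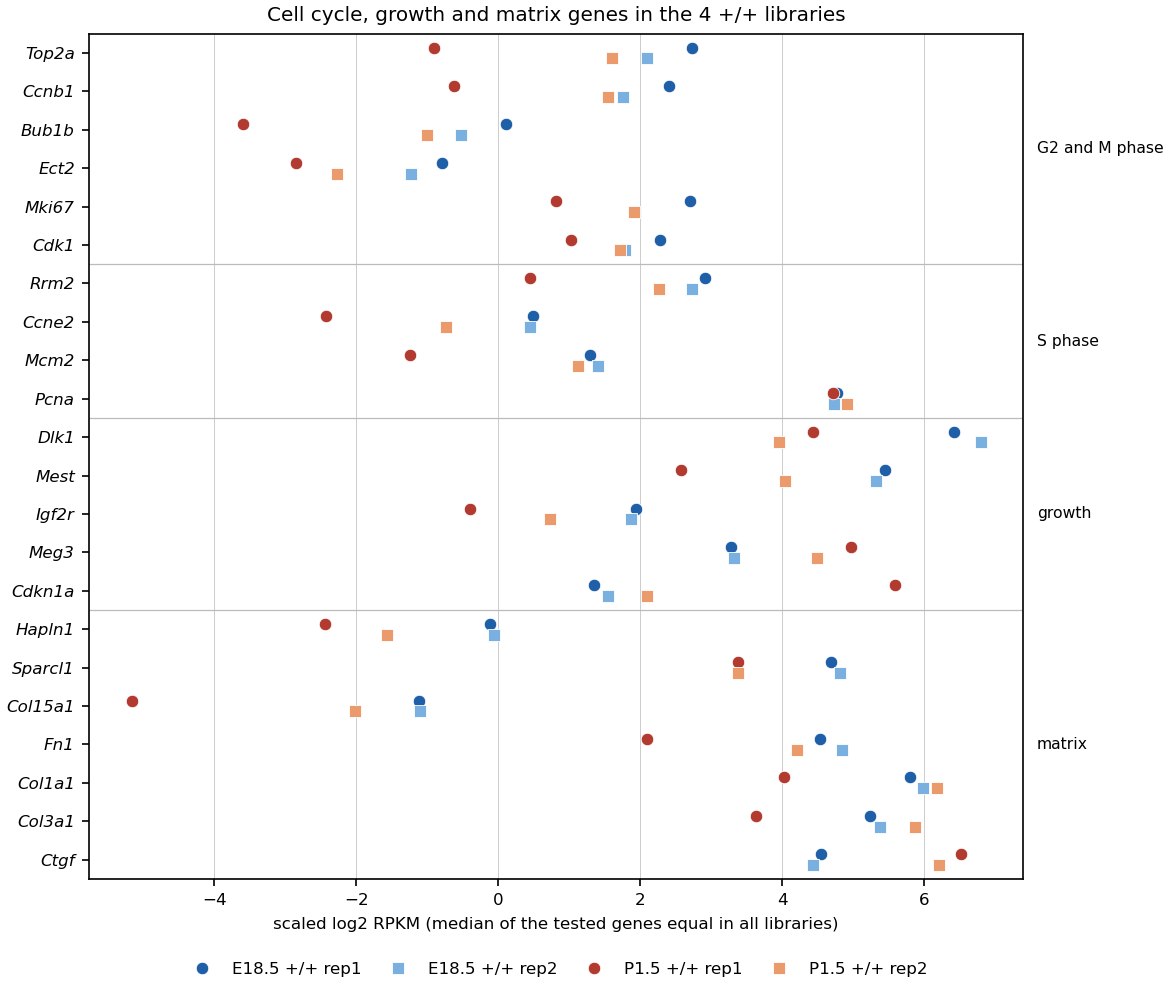
Scaled log2 RPKM of cell cycle, growth and matrix genes in each of the 4 +/+ libraries (blue E18.5, red and orange P1.5; circles replicate 1, squares replicate 2). For mitotic genes and *Col1a1* the red circle of P1.5 replicate 1 lies far left (−0.90 for *Top2a*) while replicate 2 lies near the E18.5 libraries (1.60), whereas both P1.5 libraries are displaced for *Dlk1*, *Meg3*, *Hapln1*, *Sparcl1* and *Ctgf*.

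Endothelial genes showed 6 of 33 higher without overlap (18.2%) and 0 lower, with a median of 0.14; after length correction 4 were higher and 1 lower. *Vwf*, the clotting factor carrier of larger vessels, was at −2.00 and −1.85 and then −0.25 and −0.49 (difference 1.55, SE 0.32, adjusted p = 0.117 by limma). *Hpgd*, which inactivates prostaglandins, was at 0.38 and 0.75 and then 2.06 and 3.19. *Car4*, a carbonic anhydrase of alveolar capillaries named after its values were seen, was at 1.73 and 2.31 and then 3.91 and 3.86. The general endothelial genes *Pecam1* and *Cdh5* differed by −0.20 and −0.94. The 29 mesenchymal genes had a median of −0.23, and 4 of them lay higher and 1 lower.

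Of 26 immediate early genes, 13 were higher without overlap (50%, against 12.6% of all genes) and 1 lower, with medians of 1.60 in replicate 1 and 0.43 in replicate 2. After length correction 10 were higher and 1 lower. *Egr1*, an immediate early transcription factor, was at 0.01 and −0.12 at E18.5 and 2.03 and 2.40 at P1.5 (difference 2.27, SE 0.25, adjusted p = 0.0653 by limma, and 0.0375 after length correction). *Dusp1*, a phosphatase that shuts off stress kinases, was at 3.38 and 3.46 and then 6.26 and 5.36. *Fos* was at 1.66 and 1.54 and then 4.42 and 2.44. These genes also respond within minutes to the handling of tissue, for which there is no value here. Of 19 glucocorticoid-responsive genes 1, *Angptl4*, rose and 7 were higher without overlap (36.8%), with medians of 1.95 in replicate 1 and 0.13 in replicate 2, and 5 were higher after length correction. Of 24 genes of endoplasmic reticulum stress, 2 were higher (8.33%, against 12.6% of all genes) and 0 lower, and the median was 0.23.

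Detoxification genes had 10 of 21 higher without overlap (47.6%) and 1 lower, with a median of 0.95. *Cyp1a1*, the enzyme induced through the aryl hydrocarbon receptor, was at −3.69 and −4.74 and then 0.06 and 0.77 (difference 4.63, SE 1.47, adjusted p = 0.267 by limma). *Fmo1*, a flavin monooxygenase, was at 0.24 and 0.23 and then 1.81 in both P1.5 libraries (difference 1.57, adjusted p = 0.105). Of 30 antioxidant genes 7 were higher (23.3%, against 12.6% of all genes) and 0 lower, with medians of 1.0 in replicate 1 and −0.02 in replicate 2. After quantile normalization 4 were higher, and the list median was −0.03. The clock list had 6 of 20 higher (30%, against 12.6% of all genes) and 0 lower, but 2 of 20 higher after quantile normalization and on the deposited scale. Its member *Gm129*, a repressor of the clock also known as Chrono, was at −1.52 and −1.42 and then 1.53 and 1.2, while *Arntl*, the core activator, differed by 0.00. The hour of dissection is not given in the sources used here.

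Genes of neighbouring organs were checked, since a whole lung can carry pieces of them. Of 10 tested hepatocyte genes, 8 were higher without overlap (80%, against 12.6% of all genes) and 1, *Trf* (transferrin, named after its values were seen), lower. The other 5 of the 15 listed were below the level filter, *Apob* and *Hnf4a* among them. Since a gene can pass that filter through the P1.5 libraries alone, the count gives no support on its own. *Alb*, albumin, had 40 and 24 reads at E18.5 and 8 and 1030 at P1.5, so P1.5 replicate 2 stood apart. *Ttr* followed with 0, 1, 6 and 102 reads. *Apoa1* differed, with 3 and 6 reads at E18.5 and 139 and 213 in the 2 P1.5 libraries (difference 6.28, SE 0.84, adjusted p = 0.068 by limma). The list's summed level, most of it *Trf*, was 826 and 1040 RPM at E18.5 and 315 and 601 at P1.5. *Krt13* and *Krt4*, keratins of the oesophagus and other stratified linings, were also concentrated in P1.5 replicate 2, with 1092 and 930 reads there against 57 and 34 in replicate 1.

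Of 27 listed cardiac and striated muscle genes 5 were below the level filter. Of the 22 tested, 10 were higher without overlap (45.5%, against 12.6% of all genes) and 0 lower. As for the hepatocyte genes, the count gives no support on its own. The summed levels were 470 and 293 RPM at E18.5 and 992 and 493 at P1.5. After length correction 6 were higher and 1 lower. *Tnnt2*, cardiac troponin T, was at 1.06 and 0.29 and then 4.30 and 1.70. *Nppa*, the atrial natriuretic peptide of heart atria, had 542 reads in E18.5 replicate 1 and 1, 10 and 1 in the others. The mouse pulmonary veins carry heart muscle, so these genes are also expressed within the lung. The part of adjoining tissue in any result above was not tested.

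Short, highly expressed housekeeping genes were higher in P1.5 replicate 1. Of 83 cytosolic ribosomal protein genes, 30 were higher without overlap (36.1%) and 0 lower, with medians of 1.76 in replicate 1 and 0.05 in replicate 2, and of 82 oxidative phosphorylation genes 30 were higher (36.6%) and 0 lower, with medians of 1.29 and 0.17. After length correction the counts were 9 of 83 and 7 of 82, with 1 oxidative phosphorylation gene lower, and after quantile normalization 2 and 6. These were the lists whose counts moved most with the processing, and they are given without a direction.

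**Figure D5:**
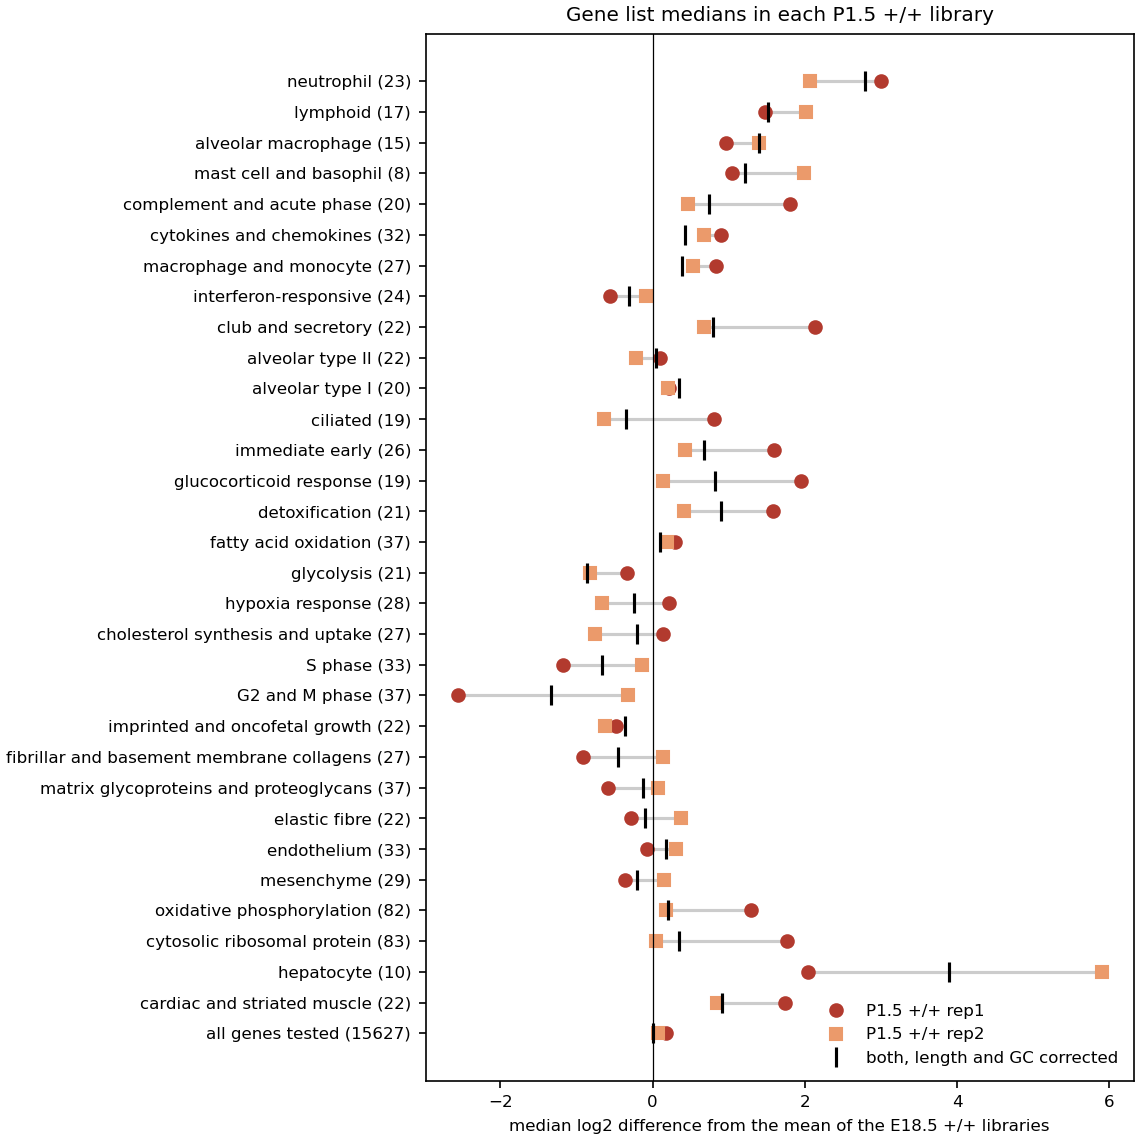
Median log2 difference of each gene list from the mean of the E18.5 +/+ libraries, in P1.5 +/+ replicate 1 (red circles) and replicate 2 (orange squares), with the number of genes tested in brackets and the median of both after length and GC correction as a black bar. The neutrophil list lies at 3.0 and 2.07, the G2 and M phase list at −2.56 and −0.33, and the ribosomal protein list at 1.76 and 0.05, against 0.17 and 0.07 for all genes.

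The stage difference in +/+ lung was set beside that in GFP/GFP lung, which shares no library with it. The GFP/GFP difference also moved with transcript length, with a Spearman's rho of −0.45, against −0.43 in +/+ lung. The overlap counts below are not length-corrected, and the part of this trend in them was not tested. In the GFP/GFP libraries *Wfdc2* had 0, 1, 12 and 0 reads, against 8038 to 32845 in +/+. At an adjusted p under 0.05 (limma) 849 genes (5.43%) rose and 430 (2.75%) fell in GFP/GFP lung, and 26.5% and 12.9% were higher and lower by the rule of no overlap. Of the 1975 genes higher in +/+, 1196 were also higher in GFP/GFP, which is 60.6% of the +/+ and 28.9% of the GFP/GFP genes, and 93 were lower. Of the 947 lower in +/+, 498 were also lower in GFP/GFP, 52.6% and 24.8%, and 37 were higher. A test of the difference between the genotypes called 0 genes (0%) at an adjusted p under 0.05 and 1885 (12.1%) at an unadjusted p under 0.05. Whether the stages differed more in GFP/GFP than in +/+ lung was thus not resolved for any gene at the adjusted threshold.

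Individual +/+ findings recurred to different degrees. *Ppp1r3b* fell by 4.11 and *Gipr* by 6.06 log2 units in GFP/GFP lung, *Angptl4* rose by 2.29 and *Crh* fell from 1175 and 314 reads to 5 and 22, each with an adjusted p under 0.05 by limma. *Rpsa-ps10*, the other gene that passed in +/+ lung, had 0 reads in all 4 GFP/GFP libraries, so no difference was measured there (adjusted p = 0.271 by limma). The neutrophil list had a median of 4.09 and the G2 and M phase list of −2.06, with 20 of 23 higher and 32 of 37 lower without overlap. Of all genes in GFP/GFP lung, 26.5% were higher and 12.9% lower. The paper reports raised immune-response genes in GFP/GFP against control lung at P1.5. The summed level of the neutrophil list in GFP/GFP lung was 101 and 175 RPM at E18.5 and 2290 and 2040 at P1.5. In +/+ lung it was 234 and 264 and then 2350 and 906. The larger GFP/GFP median thus went with a lower level at E18.5. The part of the mutant lung in that median was not tested for the list. The glycolysis list had a median of −0.29 with 2 of 21 lower and 1 higher. *Pgk1* and *Ldha*, lower in both +/+ libraries, differed by −0.10 and 0.40 in GFP/GFP lung. The tests of these differences between genotypes had adjusted p of 0.394 and 0.336, so they were not resolved.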

How the data were processed

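Lung total RNA of duplicate animals per group was sequenced from strand-specific libraries on a HiSeq2500 or GAIIx; which library ran on which is not given in the sources used here. Per the labels and methods, the authors trimmed reads with Trim Galore 0.4.0, mapped them to mm10 with TopHat 2.1.1 and deposited log2 RPKM per gene from SeqMonk. Whole reads were recovered from these log2 RPKM values with the length of each gene from start to end (99.86% to 99.97% of values within 0.02 of a whole number). Genes without reads carried a value of 0.9 reads.

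The filter kept genes whose mean RPKM was 0.05 or more, and each library was shifted to the mean of the 8 medians. One mean per stage and genotype was fitted with limma 3.58.1 (R 4.3.3) with a trended prior (4 residual and 3.53 prior degrees of freedom), with Benjamini-Hochberg adjustment. No pseudocount was added. Differences are P1.5 minus E18.5. The p-values rest on 1 spread per gene between 2 animals a group, shared by the 4 groups, GFP/GFP included. They do not measure the spread of the +/+ animals alone. That spread was unequal (median gap 0.59 log2 units at P1.5, 0.14 at E18.5) and holds the difference between sexes. An exact permutation test of 2 against 2 cannot give a two-sided p below 0.33. Counts were simulated for this comparison with 15627 genes, 100 changed 8-fold and 100 changed 2-fold at once. Of those changed 8-fold, all 100 were recovered at a dispersion of 0.05, with 14 false calls, and 0 at a dispersion of 0.2. Of the 100 changed 2-fold, 12 and 0 were recovered. The simulated libraries shared 1 dispersion and lacked the length trend and the gap between the P1.5 replicates. These rates therefore do not give the recovery in the data. The 47 gene lists, the comparison and the alternatives were chosen with earlier results of these data known. The text names *Wfdc2*, fixed anchor genes of each list, up to 4 members of each with the smallest p, and called genes; others are said to be chosen after their values were seen, and a few members of the lists are not reported here by name. Alternatives changed the scaling, filter, pseudocount (0.1 and 1 RPKM), prior, libraries and test (voom on recovered reads). The length and GC correction (loess, 15084 genes, 96.5% of those tested, longest GENCODE M21 transcript), each P1.5 library alone and the overlap counts under other scalings were added after seeing the data. Floors of 3 reads cover counting error only.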

Additional observations from a re-analysis of the deposited data

Results flagged for a closer look

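*Meg3*, the imprinted maternally expressed RNA, was noted because its difference between the stages had opposite signs in the 2 genotypes. It was at 3.27 and 3.32 in E18.5 +/+ and 4.96 and 4.48 in P1.5 +/+ libraries, and at 4.99 and 5.71 in E18.5 GFP/GFP and 4.41 and 4.14 in P1.5 GFP/GFP libraries. The difference was 1.42 (SE 0.37) in +/+ and −1.07 (SE 0.37) in GFP/GFP lung, and the difference between them was 2.5 log2 units (SE 0.52), with an unadjusted p of 0.00162 and an adjusted p of 0.222 by limma, which misses the threshold. The E18.5 GFP/GFP libraries were the ones that stood higher before birth.

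The spermatid genes *Prm1*, *Prm2*, *Tnp2* and *H1fnt*, chosen after their values were seen, met the same rule. *Prm2* had 31 and 17 reads, *H1fnt* 38 and 24, *Tnp2* 8 and 9 and *Prm1* 6 and 9 in the E18.5 +/+ libraries, and each had 0 reads in the other 6 libraries. The difference between the genotypes in the stage difference was −3.11 for *Prm1*, −4.75 for *Prm2*, −3.32 for *Tnp2* and −5.15 for *H1fnt*, but these are not measured sizes. The P1.5 +/+ and all GFP/GFP values of these genes are those assigned to a gene without reads and so move with library size alone, and what was measured is the few reads in the E18.5 +/+ libraries.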

How the results depend on the processing

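With 2 animals a stage, the number of genes called rested on single libraries. Against 2 genes higher and 3 lower as reported, leaving out 1 library at a time gave 0 to 662 higher and 0 to 422 lower, and 0 to 1 genes that differed between genotypes. Without P1.5 +/+ replicate 2 it was 662 and 422, and without P1.5 +/+ replicate 1 it was 0 and 1 (*Trim12a*); without either E18.5 +/+ library both were 0. The lone library is then assumed to vary like the other groups. The numbers of higher and lower genes were 4 and 5 on the deposited scale, 36 and 13 after quantile normalization, 4 and 6 without a filter, 14 and 6 at a mean of at least 0.5 RPKM, 21 and 9 with a pseudocount of 0.1 RPKM, and 16 and 17 after length and GC correction. They were 24 higher with a pseudocount of 1 RPKM, 6 higher without the trend, and 64 and 16 at an adjusted p under 0.1. Both were 0 with the 4 +/+ libraries alone (2651 genes at an unadjusted p under 0.05, smallest adjusted p 0.144) and with voom (2257 genes).

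With the replicate number as a block, 0 genes were higher and 0 lower (1946 at an unadjusted p under 0.05). Only 1 deviation per group can be compared, and that of replicate 1 had a correlation of −0.02 across genes between the stages, and no label ties a number to a litter or day. The number also went with sex, replicate 1 holding *Xist* and replicate 2 *Ddx3y* reads in each +/+ stage, so this block cannot be told apart from sex. Genes differing between genotypes were 0 as reported, 2 with a pseudocount of 1 RPKM and 1 after length and GC correction; the cause of these shifts was not tested.

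The 5 called genes kept their direction under all 17 alternatives and lost the threshold in 35 of 85 checks. The median of 29 of 47 lists moved by more than its spread between replicates under some alternative. Depth limits lymphoid and hepatocyte genes, many of which had under 20 reads at E18.5.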

Other observations

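Of 48 tested genes of developmental signals, 3 were higher without overlap (6.25%, against 12.6% of all genes) and 4 lower (8.33%, against 6.06%). The share higher was below that of all genes and the share lower near it, so the genes below are described singly. *Shh*, the hedgehog ligand of the epithelium, was at 2.09 and 2.19 at E18.5 and −0.14 and 1.61 at P1.5 in +/+ lung. Its receptor and target *Ptch1*, named after its values were seen, was at −0.22 and −0.60 and then −2.53 and −2.22, with 1729 and 1222 reads before and 143 and 266 after birth. *Wnt4* was at −3.03 and −2.71 and then 2.45 and −1.52, so the size of its difference rested on replicate 1. None passed the test; the adjusted p by limma was 0.313, 0.345 and 0.272.

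Other values were chosen after they were seen. *Trim12a*, a member of a cluster of similar antiviral genes, had 638 and 697 reads at E18.5, 351 in P1.5 +/+ replicate 1 and 2 in replicate 2, against 452 to 663 in the GFP/GFP libraries. *Prph*, a filament protein of peripheral neurons, had 67, 62, 3536 and 20 reads in the E18.5 and P1.5 +/+ libraries. *Agr2*, a secretory cell disulfide isomerase, was at 0.37 and 0.09 at E18.5 and −2.77 and −3.0 at P1.5, and *Phyh*, a peroxisomal enzyme of branched fatty acid breakdown, at 2.34 and 2.27 and then 1.08 and 0.91; both missed the threshold as reported and passed it after length and GC correction (adjusted p = 0.0375 by limma). In each stage replicate 1 held *Xist* reads (14602 and 4246) and replicate 2 *Ddx3y* reads (2175 and 1139), so the sexes were balanced across birth and replicate number and sex cannot be told apart.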
